A study of Mus musculus with 8 samples.

Results

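The genes described here belong to cholesterol synthesis and its control. They are Hmgcs1, Idi1, Fdps, Fdft1, Sqle and Lss, which encode enzymes of the pathway, and Srebf2 and Insig1, which encode regulators of it. They were taken by symbol from the gene list of the deposited matrices and are 8 of the 30406 genes that both runs of the study list. The rule uses symbols, not expression values.

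The series holds 8 droplet single-cell libraries (10x Genomics 3' chemistry) from arteries and surrounding tissue of male ROSA26-eYFP+/+ Cdh5-CreERT2+ mice. In all groups, tamoxifen diet from 6 weeks of age for 2 weeks switched on YFP through CreERT2, which is under the endothelial Cdh5 promoter. The controls thus carry the same alleles and had the same drug. From 8 weeks of age the mice ate normal chow with 5.8% fat or a high fat diet (HFD) with 60% fat for 12 to 13 weeks. YFP-positive cells were then sorted, with the gate not described in the labels. The comparison crosses 2 diets with 2 tissues, mesentery and epididymal adipose tissue, in 4 groups. Each group has 2 libraries, from runs A and B of the experiment, and each library is 1 pool of 6 mice, so the spread between libraries is a spread between pools. The runs were counted with different software versions.

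Cells make cholesterol from acetyl-CoA through mevalonate, the isoprenoid diphosphates and squalene. When sterol in the endoplasmic reticulum is low, the protein encoded by Srebf2 (SREBP2) is cut and moves to the nucleus, where it switches on most genes of the pathway, Insig1 among them. INSIG1 protein holds the SREBP complex back in the endoplasmic reticulum when sterol is plentiful, so the pathway limits itself. Endothelial cells can also take up cholesterol from lipoproteins, which lowers their need to make it.

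The stretches just before the start sites of members with an entry in the RefSeq promoter table (GRCm38.p6) show what the members share at the sequence level. The table held 5 of the 8 members (Hmgcs1, Idi1, Lss, Srebf2 and Insig1), and 3 are printed, namely the earliest enzyme among the members, the isomerase and the feedback regulator. Each runs 5′ to 3′ on the plus strand and ends just before the start site. They lie at chr13:119690101-119690350 (Hmgcs1), chr13:8885356-8885605 (Idi1) and chr5:28071162-28071411 (Insig1). Capitals mark TCACNCCAC, a form of the sterol regulatory element bound by SREBP2, and CCAAT, the letters bound by NF-Y, which read ATTGG here because they lie on the other strand.
Hmgcs1: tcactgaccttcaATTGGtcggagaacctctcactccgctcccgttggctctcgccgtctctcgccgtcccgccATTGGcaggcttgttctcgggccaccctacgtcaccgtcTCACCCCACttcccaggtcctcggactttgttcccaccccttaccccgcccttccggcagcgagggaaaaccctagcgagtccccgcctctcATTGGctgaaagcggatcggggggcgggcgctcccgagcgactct
Idi1: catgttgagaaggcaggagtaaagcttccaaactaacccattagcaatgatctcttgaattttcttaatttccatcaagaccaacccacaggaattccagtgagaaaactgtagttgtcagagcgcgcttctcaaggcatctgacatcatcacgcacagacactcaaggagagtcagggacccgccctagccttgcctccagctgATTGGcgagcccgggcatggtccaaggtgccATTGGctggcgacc
Insig1: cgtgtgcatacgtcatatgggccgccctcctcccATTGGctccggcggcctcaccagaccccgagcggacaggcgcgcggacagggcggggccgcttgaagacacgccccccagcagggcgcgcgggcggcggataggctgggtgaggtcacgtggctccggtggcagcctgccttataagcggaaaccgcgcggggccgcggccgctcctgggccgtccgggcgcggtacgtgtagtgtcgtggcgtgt
Both strands were searched in the 250 bases before the start. TCACNCCAC was found in 1 of the 5 member promoters, that of Hmgcs1, where it began 137 bases before the start, and in 1.05% of the 32851 promoters of the table. CCAAT was found in 5 of 5 member promoters, at 45 bases before the start in both Hmgcs1 and Idi1, against 33.8% of all promoters. GGGCGG, the GC box bound by SP1, was also in 5 of 5, against 32.7% of all, and is not capitalised. A match says only that the letters are there.

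Sequencing depth was 3461360 to 36779289 UMIs (unique molecules) per library, higher in every run B library than in any of run A. Of 23207 cells used, 14857 lay in 20 clusters with endothelial markers, and the other cells were immune, fibroblast and adipocyte-like cells or carried mixed markers. The members were sparse. Over all endothelial cells they had 2795 UMIs (Hmgcs1), 2104 (Insig1), 1971 (Srebf2), 1952 (Fdps), 1314 (Idi1), 753 (Fdft1), 561 (Sqle) and 183 (Lss). Levels below are CPM, the UMIs of a gene in every 1000000 UMIs of the summed cells of a class in 1 library, and a level is compared between cells, not between genes. Lss passed the filter on low counts in 1 of the 5 sets of cells tested for diet (all endothelial cells and the 4 classes), Sqle in 4, and the other 6 members in all 5.

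In the 4 vessel classes the members lay at low and broadly overlapping levels, with lymphatic-like cells of the mesentery standing above the rest. The summed level of the 8 members ran from 101 to 179 CPM (median 135) in arterial-like cells of 8 libraries. In capillary-like cells it was 97.0 to 146 (median 121; 6 libraries with at least 20 cells), and in venous-like cells 80.3 to 162 (median 97.1; 8 libraries). Lymphatic-like cells had the widest range, 87.8 to 389 (median 155; 8 libraries). The capillary-like sums of run A mesentery held 15 (chow) and 13 (HFD) cells only and are not counted here. The classes are rebuilt from markers, and in some libraries different clusters hold most of a class: cluster 19 made up 67% of arterial-like cells in mesentery on chow A, and clusters 5 and 8 most of them in the adipose libraries.

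**Figure D1:**
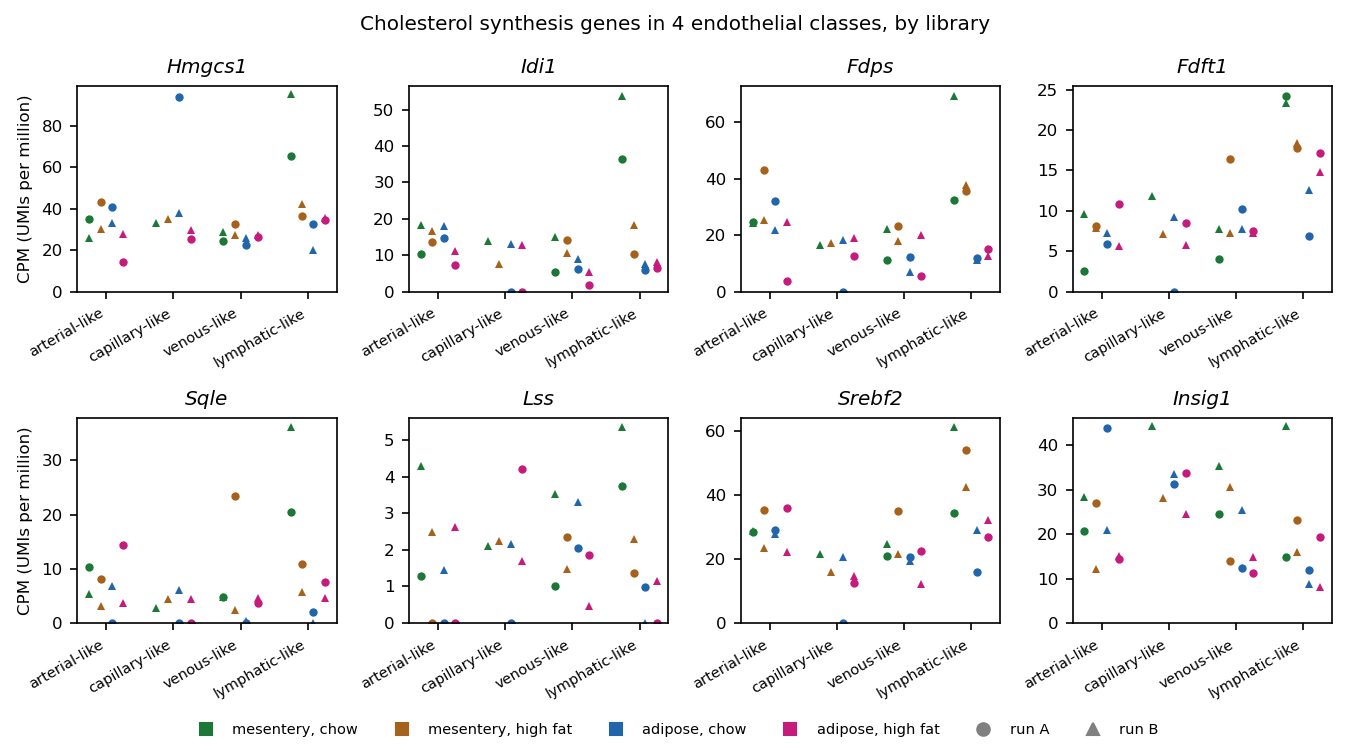
Levels of the 8 members in CPM (vertical axes, 1 panel per gene) in the 4 endothelial classes, 1 point per library with at least 20 cells of the class, coloured by group, circles for run A and triangles for run B. In lymphatic-like cells the mesentery on chow libraries are the highest for Hmgcs1, Idi1 and Sqle.

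Each class was compared with the mean of the other 3 in 1 model over 30 sums with library as a block, using edgeR's quasi-likelihood test with adjustment over 10077 genes. In lymphatic-like cells 6 of the 7 members tested were higher, where 43.5% of all genes were called in either direction. Fdft1, squalene synthase, differed most surely, by 1.09 ± 0.18 (log2 difference ± SE; edgeR adjusted p = 2.04e-05), with a median of 17.5 CPM in lymphatic-like cells against 7.51 to 7.75 in the other classes. Srebf2 was higher by 0.66 ± 0.14 (edgeR adjusted p = 0.000261). The remaining called members were Idi1 (0.79 ± 0.26), Hmgcs1 (0.51 ± 0.17), Sqle (1.10 ± 0.42) and Fdps (0.57 ± 0.23), with edgeR adjusted p of 0.0166 to 0.0434. Insig1 did not go with them: its difference was -0.49 ± 0.20 (edgeR adjusted p = 0.0537). DESeq2 (46.7% of genes called) called Fdft1, Srebf2 and Hmgcs1 higher and Insig1 lower (adjusted p = 0.0402), and did not call Idi1 (0.0622), Fdps (0.0871) or Sqle (0.193). The latter 3 were also not called by edgeR without the library block (35.2% of genes called; adjusted p of 0.0966 to 0.169), Sqle at a mitochondrial limit of 5% (0.0917), and Fdps at a clustering resolution of 2.0 (0.0585) or without the filter on low counts (0.0526). Insig1 was called lower by edgeR with doublets kept (adjusted p = 0.0342) or without that filter (0.0231).

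Insig1 was instead higher in capillary-like cells, by 0.64 ± 0.20 (edgeR adjusted p = 0.013; 30.5% of all genes called), with a median of 32.5 CPM against 15.5 to 20.9 in the other classes. By library Insig1 was at 44.3 in mesentery on chow B, 28.1 in mesentery on HFD B, 31.3 (1 UMI in 22 cells) and 33.6 in adipose tissue on chow A and B, and 33.7 and 24.5 in adipose tissue on HFD. The summed level of 7 adipocyte markers was 207 in mesentery on HFD B and 76.1 to 101 in adipose tissue on HFD, against 908 to 3365 in the 3 chow libraries, and its part in the Insig1 level was not tested. The call was lost without adipose tissue on chow B or on HFD B (edgeR adjusted p = 0.0663 and 0.0647). Srebf2 was lower there, by -0.59 ± 0.16 (edgeR adjusted p = 0.00464). In venous-like cells Idi1 was lower by -0.75 ± 0.27 (edgeR adjusted p = 0.0407, with 27.7% of genes called). DESeq2 did not make this call (adjusted p = 0.0974, with 30.2% called), and it was lost when any of 6 single libraries was left out. The call was also lost (-0.22) when cluster 25, described below, was left out of the lymphatic-like cells. The venous-like sums were then the same, while the mean they were compared with had changed. In arterial-like cells edgeR called 0 of 7 members (1 at an unadjusted p under 0.05, Fdft1), against 31.2% of all genes, and DESeq2 0, against 33.2%.

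The lymphatic-like differences were smaller, or turned, when 1 cluster was left out, which was chosen for its high levels, so that a lower level follows in part from the choice. Without cluster 25, Fdft1 (0.72 ± 0.17, edgeR adjusted p = 0.0012) and Srebf2 (0.42 ± 0.13, 0.011) were still called higher in lymphatic-like cells, against 45.8% of 9739 genes called. Hmgcs1 (-0.15), Idi1 (-0.51) and Fdps (-0.24) then changed sign and were not called, with edgeR adjusted p of 0.0983 to 0.380. Insig1 was called lower, by -0.95 ± 0.20 (edgeR adjusted p = 0.000273). In the same fit Idi1 (0.66 ± 0.19) and Fdps (0.56 ± 0.18) were called higher in arterial-like cells, with edgeR adjusted p of 0.00781 and 0.0180 (32.9% of genes called). The arterial-like sums were the same as before, while the lymphatic-like part of the mean they were compared with had changed.

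Clusters 25 and 23 were singled out after the levels had been seen, so their values are a description with no test. The members had been left out of the genes used for clustering. Cluster 25 was named lymphatic-like by the marker rule, and its leading genes were Marco, F8, Stab2, Tnc and Cyp1b1. Cluster 23 carried endothelial markers but met no class rule, and its leading genes were Coch, Bmp2, Il4i1, Dsg2 and Serpina3g. Both had Prox1, the transcription factor of lymphatic endothelium, at 483 (cluster 25) and 414 (cluster 23) CPM, against 677 in the other lymphatic-like cells and 7.46 in arterial-, capillary- and venous-like cells together. Both also had low levels of other lymphatic markers: Ccl21a, a chemokine made by lymphatic vessels, stood at 36.4 and 83.6 against 24900 in other lymphatic-like cells, and Reln at 48.2 and 10.5 against 1170. Lyve1, a hyaluronan receptor, was at 2810 in cluster 25, 599 in cluster 23 and 3760 in other lymphatic-like cells. Marco, a scavenger receptor, was at 4920 in cluster 25 and 504 in cluster 23 against 1.14.

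These clusters had the 2 highest levels of 7 of the 8 members among the 20 endothelial clusters. This count follows in part from the choice of the clusters, and no share over all genes stands beside it. The summed level was 594 in cluster 25 and 645 in cluster 23, and 66.4 to 220 (median 125) in the other 18. For the early enzymes, Hmgcs1, which makes HMG-CoA, was at 149 and 118 against 6.64 to 48.1 in the rest. Idi1, the isomerase that makes the reactive isoprenoid unit, was at 92.1 and 133 against 0 to 38.7. Fdps, which joins these units to farnesyl diphosphate, was at 110 and 168 against 10.0 to 54.6. The enzymes around squalene were also highest in these 2 clusters. Fdft1 was at 35.9 and 38.6 against 3.97 to 16.1, Sqle, squalene epoxidase, at 59.0 and 36.9 against 0 to 26.6, and Lss, which closes the ring to lanosterol, at 9.44 and 10.5 against 0 to 6.64. Among the regulators, Srebf2 was at 79.3 and 90.7 against 0 to 42.1. Insig1 was the exception, at 59.5 in cluster 25 and 48.5 in cluster 23 with cluster 18 between them at 50.3.

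**Figure D2:**
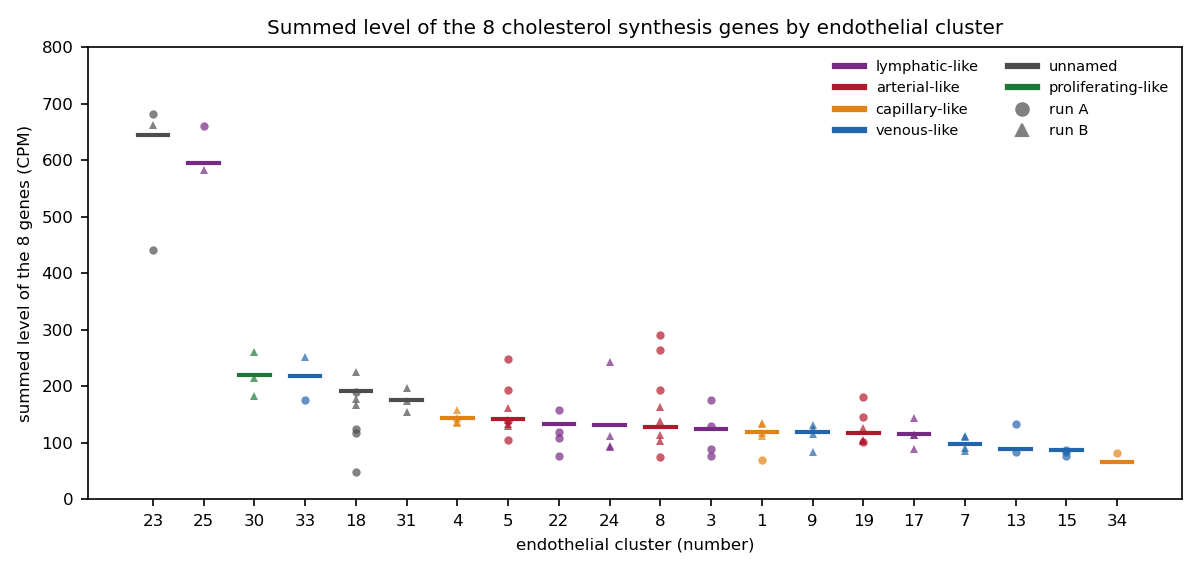
Summed level of the 8 members in CPM (vertical axis) in each of the 20 endothelial clusters (horizontal axis); bars show all cells of the cluster and points its libraries with at least 20 cells. The bars of clusters 23 and 25 reach 645 and 594, and no other passes 220.

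Within each cluster the summed levels of the chow libraries had overlapping intervals. In cluster 25 the summed level was 660 in mesentery on chow A (95% Poisson interval 567 to 763, counting error only) and 583 in mesentery on chow B (548 to 619). In the 10 cells of mesentery on HFD A it was 602 (422 to 834). In cluster 23 it was 682 and 662 in mesentery on chow A and B (583 to 794 and 618.5 to 708) and 440 (341 to 560) in mesentery on HFD A, below both. Hmgcs1 in cluster 25 was at 179 and 149 on chow and 33.5 in the 10 cells on HFD, and Idi1 at 124, 87.2 and 66.9. Fdps went the other way, at 106, 107 and 167, and Srebf2 likewise, at 69.2, 77.6 and 184. With 36 member UMIs in those 10 cells, single genes cannot be compared between diets within the cluster.

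Each cluster was also set against the other lymphatic-like cells of the same library, where single members had few UMIs (at most 45), so that the order of the ratios cannot be read. Idi1 was 19.8-fold and 17.7-fold higher in cluster 25 than in other lymphatic-like cells of mesentery on chow A and B, and 20.2-fold and 28.9-fold higher in cluster 23. Hmgcs1 was 6.79-fold and 9.06-fold higher in cluster 25, and Fdps 14.1-fold and 7.68-fold. Fdft1 was 6.54-fold and 2.51-fold higher, Srebf2 3.07-fold and 2.10-fold, and Insig1 2.26-fold and 3.86-fold. In the other lymphatic-like cells Idi1 had 5 and 6 UMIs, Fdps 6 and 17, Sqle 1 and 5 and Lss 0 and 0, and no fold is given for Sqle and Lss. The summed level was 7.74-fold and 5.54-fold higher in cluster 25 and 8.00-fold and 6.29-fold higher in cluster 23.

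Cells of these clusters had more UMIs each, so each cell was also thinned to 2000 UMIs, which left out shallower cells (54 of 55 and 200 of 213 cells of cluster 25 were deep enough, 48 of 52 and 185 of 217 of cluster 23, 177 of 350 and 222 of 299 of the others). At least 1 UMI of a member was then found in 50.0% and 59.5% of cells of cluster 25 in mesentery on chow A and B, in 68.8% and 68.1% of cluster 23, and in 19.8% and 18.0% of other lymphatic-like cells. Without thinning the shares were 87.3% and 85.4%, 86.5% and 84.8%, and 16.9% and 29.8%, at median depths of 4920 and 7080, 4860 and 5500, and 2030 and 3150 UMIs. For Idi1 alone the thinned shares were 16.7% and 17.5% in cluster 25, 22.9% and 25.4% in cluster 23 and 1.13% and 0.901% in the others. At equal depth the shares in both clusters were above those of other lymphatic-like cells in both libraries.

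**Figure D3:**
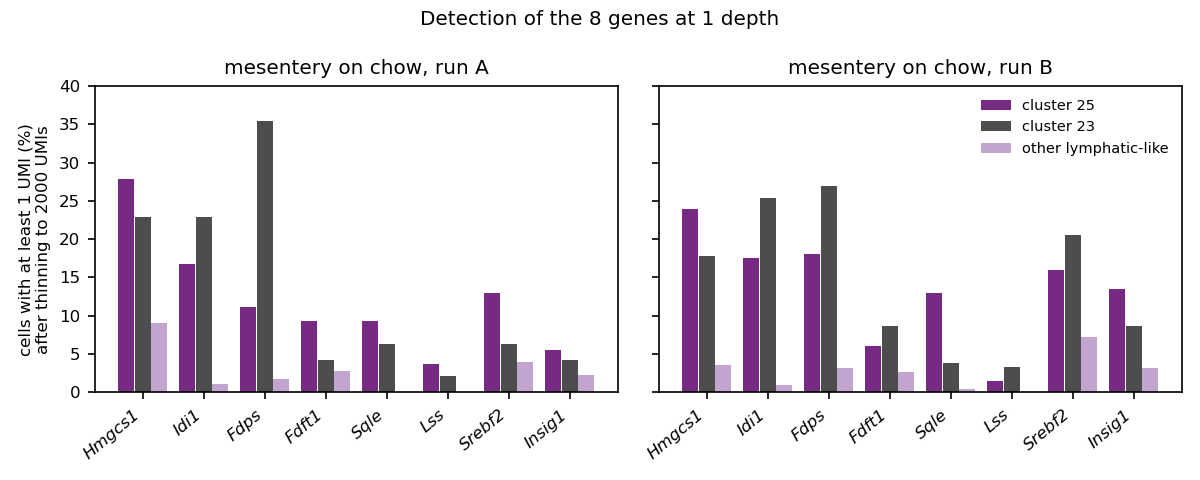
Percent of cells with at least 1 UMI of each member (vertical axis) after thinning to 2000 UMIs per cell, in mesentery on chow A and B, for cluster 25, cluster 23 and the other lymphatic-like cells. The bars of the other lymphatic-like cells are the lowest for each member in both libraries, for Idi1 at 1.13% and 0.901%.

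Other genes of the pathway, from lists that are not complete, were also high in these clusters, and fatty acid genes ranked lower by summed level. The clusters were picked for high member levels, and no share over all genes stands beside the counts below. These counts are a description only. The summed level of 15 other enzymes of cholesterol synthesis was 820 in cluster 25 and 939 in cluster 23, against at most 467 in the other endothelial clusters, and both clusters were the 2 highest for 10 of the 15. For the 9 genes of fatty acid synthesis it was 463 and 394, ranks 3 and 5 of the 20, below the capillary-like cluster 4 at 966. Both clusters led for 1 of the 9. In the adipocyte-like cluster 12 these genes stood at 11190 (mesentery on chow B) and 5454 (adipose tissue on chow B). The capillary-like sums on chow also held adipocyte markers, and their part in this ranking was not tested. The list of sterol sensing and SREBP processing genes stood at 818 and 724 (ranks 1 and 3). The LXR and oxysterol list stood at 614 and 272 (ranks 5 and 18).

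Where these cells were found differed between the groups. Cluster 25 made up 55 of 405 lymphatic-like cells in mesentery on chow A (13.6%, exact 95% binomial interval 10.4 to 17.3) and 213 of 512 in mesentery on chow B (41.6%, 37.3 to 46.0). The HFD libraries of the mesentery held 10 of 418 (run A, 2.39%, 1.15 to 4.36) and 1 of 132 (run B, 0.758%). The adipose libraries held 0 of 760, 0 of 170, 0 of 438 and 0 of 189, which, at 3 cells of the total, allow shares of up to 0.395%, 1.76%, 0.685% and 1.59%. As a share of endothelial cells, cluster 25 was 4.26% and 7.06% in mesentery on chow A and B and 1.45% and 0.0498% on HFD. Cluster 23 made up 52 of 1292 endothelial cells (4.02%, 3.02 to 5.24) in mesentery on chow A and 217 of 3016 (7.19%, 6.30 to 8.18) in mesentery on chow B. The HFD libraries held 21 of 690 (run A, 3.04%, 1.89 to 4.61) and 1 of 2009 (run B, 0.0498%), and the 4 adipose libraries 0. These intervals cover the counting of cells only, and the 2 chow pools of the mesentery differed beyond them (13.6% and 41.6% for cluster 25). As a description, the share of cluster 25 was lower on HFD in both runs. That of cluster 23 was lower in run B and stood at 4.02% on chow against 3.04% on HFD in run A. The diet was not tested on these shares. Whether these cells belong to the vessels or to other structures within the dissected mesentery cannot be told from the files, and this holds for the differences of the lymphatic-like sums that rest on them. In lymphatic-like cells of mesentery on chow, cluster 25 held 72.7% (A) and 89.0% (B) of the member UMIs.

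In lymphatic-like cells of the mesentery, the levels of Idi1, Hmgcs1 and Sqle were lower on HFD than on chow in both runs, without passing the test in the fit without a run term. Idi1 was at 36.4 (A) and 53.8 (B) CPM in mesentery on chow and at 10.3 and 18.4 on HFD. In adipose tissue it was at 5.92 and 7.54 on chow and 6.44 and 8.00 on HFD. The mesentery libraries on chow were the highest, and the 4 adipose libraries the lowest, with no overlap between these 3 sets.

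Hmgcs1 was at 65.3 and 95.2 in mesentery on chow, 36.3 and 42.5 on HFD, 32.6 and 20.1 in adipose tissue on chow and 34.3 and 35.5 on HFD. Sqle was at 20.5 and 36.1, 10.96 and 5.74, 1.97 and 0, and 7.51 and 4.57 in the same order. Both genes were highest in the mesentery libraries on chow, while mesentery on HFD lay close to adipose tissue.

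The other members separated the diets less. Fdps was at 32.6 and 69.5 in mesentery on chow and 35.6 and 37.9 on HFD, so that the groups overlapped, and at 11.3 to 15.02 in the adipose libraries. Srebf2 was at 34.5 and 61.1 against 54.1 and 42.5, and Insig1 at 14.9 and 44.4 against 23.3 and 16.1, both overlapping. Fdft1 was at 24.3 and 23.4 against 17.8 and 18.4, and Lss at 3.73 and 5.34 against 1.37 and 2.30.

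For the diet in mesentery, edgeR called 0 of 7 members (0.183% of 9283 genes were called), 3 of them at an unadjusted p under 0.05, and DESeq2 called 0 (1.26% of genes). The log2 differences, high fat diet minus chow, were -1.69 ± 0.38 for Idi1 (edgeR adjusted p = 0.159), -1.02 ± 0.34 for Hmgcs1 (0.412) and -1.69 ± 0.61 for Sqle (0.478). The other 4 members tested lay between -0.59 and 0.03. With the run as a block these 3 were called, Idi1 at -1.67 ± 0.31 (edgeR adjusted p = 0.00257), Hmgcs1 at -1.04 ± 0.27 (0.0308) and Sqle at -1.70 ± 0.47 (0.0423), where 6.26% of all genes were called. Leaving single libraries out of the blocked fit changed the number of members called for the diet. Fewer were called without mesentery on chow B, mesentery on HFD B or adipose tissue on HFD A. The ranges for members and for all genes are given below, under the dependence on processing. In adipose tissue 0 of 7 members were called (edgeR, 0% of genes; 0 members at an unadjusted p under 0.05; DESeq2 0, 0% of genes), and all 7 estimates were above 0, from 0.12 to 2.37. The interaction of diet and tissue was below 0 for all 7 members and called for 0 of 7 by edgeR (0% of genes; 3 members at an unadjusted p under 0.05; adjusted p of at least 0.909), by DESeq2 (0.162%) and by edgeR with the block (1.27%; adjusted p of at least 0.129).

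**Figure D4:**
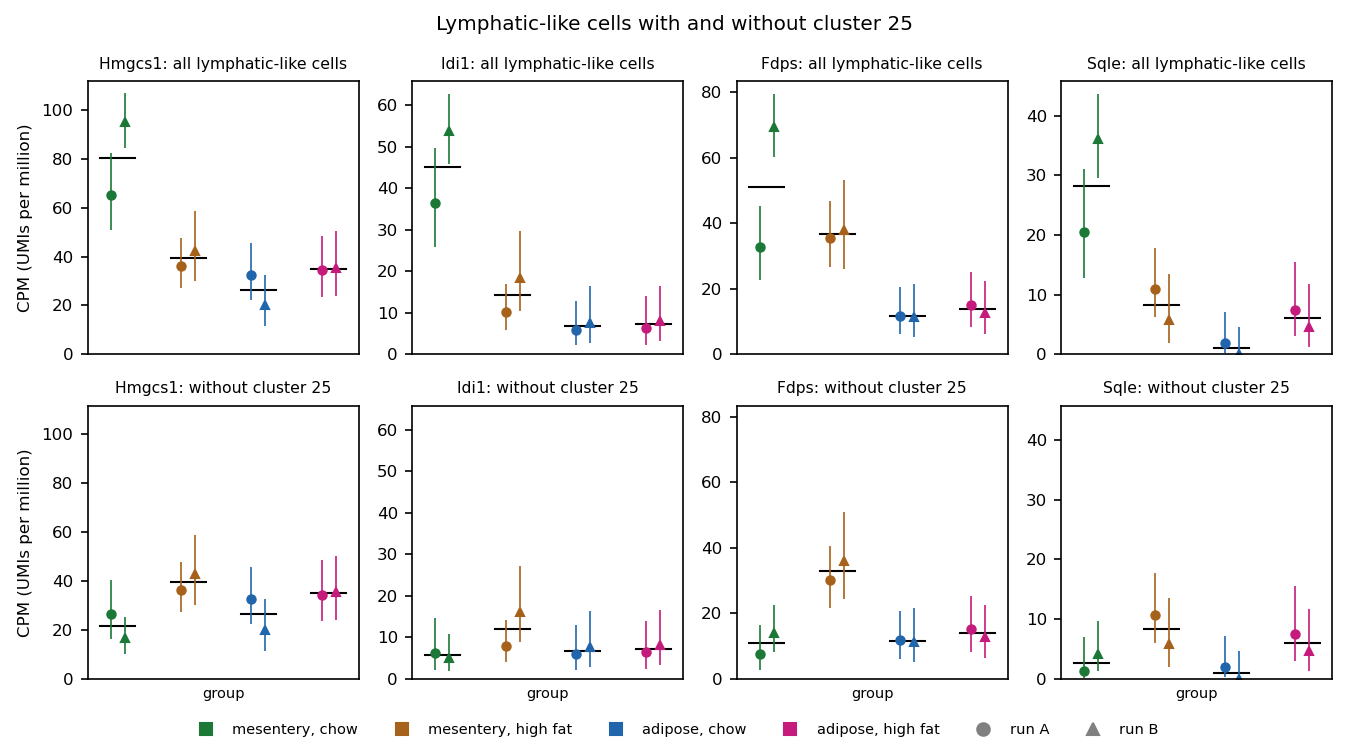
Level of Hmgcs1, Idi1, Fdps and Sqle in CPM (vertical axes) in lymphatic-like cells of each library, by group, with all cells (top) and without cluster 25 (bottom); vertical bars are 95% Poisson counting intervals and horizontal bars the mean of the 2 libraries. The mesentery on chow libraries are the highest of the top panels for Hmgcs1, Idi1 and Sqle and are not in the bottom ones.

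Between the tissues on chow, the estimates of all 7 members tested were above 0, that is, higher in mesenteric than in adipose lymphatic-like cells. Idi1 passed the test, at 2.74 ± 0.42 (log2, edgeR adjusted p = 0.0373; 0.873% of 9283 genes called), and DESeq2 called Idi1 and Sqle (1.91% of genes). The call of Idi1 was lost without either chow library of either tissue or without either adipose library on HFD, with edgeR adjusted p of 0.055 to 0.3 and differences of 2.43 to 2.96. With the run as a block 5 of 7 were called, against 6.61% of all genes: Idi1 (2.71 ± 0.37, edgeR adjusted p = 0.000162), Fdps (2.12 ± 0.38, 0.0017), Hmgcs1 (1.57 ± 0.30, 0.00294), Srebf2 (1.15 ± 0.33, 0.0474) and Sqle (0.000781). Sqle had 22 and 108 UMIs in the mesentery libraries against 2 and 0 in adipose tissue, so its size is not given. Leaving single libraries out of this fit changed the number of members called. Fewer were called without adipose tissue on chow B or mesentery on chow B, and the ranges are given below beside those of all genes. With all libraries and the block, Fdft1 (1.30) and Insig1 (1.59) did not pass, with edgeR adjusted p of 0.0591 and 0.105. On HFD 0 of 7 members differed between the tissues by edgeR (0% of genes; 1 member at an unadjusted p under 0.05, Fdps) or DESeq2 (0.0215%), while all 7 estimates were again above 0, from 0.16 to 1.40.

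These differences changed when cluster 25 was left out. In mesentery on chow, Hmgcs1 then stood at 26.3 and 16.5, Idi1 at 6.27 and 4.93, Fdps at 7.52 and 14.0 and Sqle at 1.25 and 4.11, below mesentery on HFD, where Hmgcs1 was at 36.4 and 42.8, Idi1 at 7.85 and 16.2, Fdps at 30.0 and 35.8 and Sqle at 10.7 and 5.78. The summed level was 85.2 and 105 on chow and 172 and 179 on HFD. Its log2 difference between the diets was thus 0.97 in run A and 0.74 in run B, against -0.29 and -1.06 with all cells. All 5 members that still passed the low-count filter were estimated higher on HFD. Because the cluster was chosen for its high levels and lay mostly in the chow libraries, leaving it out lowers the chow values by construction, and the refit is no test of the diet. For the diet it called 1 of 5 members with the block (Fdps; 2.22% of 8980 genes) and 0 of 5 without it (edgeR, 0% of genes; 1 member at an unadjusted p under 0.05, Fdps). For the tissues on chow it called 0 of 5 with the block (1.73% of genes).

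The remaining lymphatic-like cells fell into clusters that each came mostly from 1 run, and the order of the diets was the same in each. The summed level in mesentery cells was 76.2 on chow and 175 on HFD in cluster 3 (run A), 119 and 158 in cluster 22 (run A), 113 and 143 in cluster 17 (run B) and 94.3 and 242 in cluster 24 (run B). These are values of 1 library each, with no test and no counting interval. Over all libraries the member UMIs were 436 in cluster 3, 85 in cluster 22, 270 in cluster 17 and 181 in cluster 24. Small gaps between the diets, as in clusters 22 and 17, therefore cannot be read.

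Markers of other cells were low but not absent in the lymphatic-like sums. The summed level of 7 adipocyte markers was 14.0 and 122 in mesentery on chow A and B, 5.48 and 8.04 on HFD, 3.95 and 119 in adipose tissue on chow and 17.2 and 11.4 on HFD. In the same order 3, 1, 5, 4, 5, 0, 4 and 3 of the 7 were at 0, Adipoq among them in mesentery on chow A and Lep in both mesentery libraries on chow. Macrophage markers ran from 142 to 250 and T cell markers from 17.2 to 72.7. Their part in the member levels was not tested.

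Other genes of the pathway in lymphatic-like cells were read from the same fits. Between the tissues on chow 3 of the 12 other enzymes tested were higher and 0 lower, among them Cyp51 (3.197 ± 0.504, edgeR adjusted p = 0.038) and Msmo1 (2.36 ± 0.34, 0.030), which act in the demethylation of sterol rings. This fit called 0.873% of all genes, and the median of the 12 was 0.85, against -0.01 for all genes. With the block Hsd17b7 and Sc5d were also called higher. For the diet in mesentery the block fit, which called 6.26% of all genes, called 2 of the 12 lower on HFD, Hsd17b7 (-2.53, edgeR adjusted p = 0.00068) among them. It also called 2 of the 6 fatty acid genes tested lower, Fasn (-1.68, 0.023) and Fads1 (-3.62, 0.00014), and 1 of the 7 LXR and oxysterol genes, Mylip (-2.07, 0.0016). Without the clusters 0 of the 9 other enzymes tested were called for that comparison with the block.

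In blood endothelial classes no member passed the test between the diets. Hmgcs1 in arterial-like cells was at 34.9 and 25.8 in mesentery on chow, 43.3 and 30.3 on HFD, 40.9 and 33.1 in adipose tissue on chow and 14.4 and 27.8 on HFD. The last group was partly below the others, and the remaining ones overlapped. edgeR called 0 of 7 members in arterial-like cells, 0 of 6 in capillary-like cells and 0 of 7 in venous-like cells in either tissue, 0 of them at an unadjusted p under 0.05, and DESeq2 and the blocked fit also called 0. The capillary-like fits include run A sums of 15 (mesentery on chow), 13 (mesentery on HFD) and 22 cells (adipose tissue on chow). Idi1, Fdps and Fdft1 were at 0 in these sums, which therefore say little about the diet. Over all genes edgeR called 0% in arterial-like and venous-like cells for both tissues, 0.164% of 9762 in capillary-like cells of the mesentery and 0.492% of those of adipose tissue. In mesentery and adipose tissue, in this order, DESeq2 called 0.00985% and 0% of genes in arterial-like, 0% and 0.0102% in capillary-like and 0.0189% and 0% in venous-like cells. The fit with the block called 3.23% and 0.207%, 1.33% and 1.69%, and 0.18% and 0.085%. Estimates ran from -0.79 to 0.35 in arterial-like cells of the mesentery and from -1.03 to 0.44 of adipose tissue. With 2 pools per group, differences of that size could not be told from the spread.

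In all endothelial cells the summed level was 160 and 241 in mesentery on chow, 197 and 130 on HFD, 105 and 137 in adipose tissue on chow and 105 and 116 on HFD. Mesentery libraries tended to lie above adipose ones, with 1 overlap (130 and 137). For the diet edgeR called 0 of 8 members in either tissue (0% of 13284 genes; 0 members at an unadjusted p under 0.05), and DESeq2 0 (0.0678% and 0.0151% of genes), with estimates of -0.95 to 0.02 in the mesentery and -0.68 to 0.49 in adipose tissue. For the tissues on chow edgeR also called 0 of 8 (0% of genes; 1 member at an unadjusted p under 0.05, Fdps) and DESeq2 0 (0.67%), with all 8 estimates above 0. When clusters 23 and 25 were left out, 4 of 8 were above 0 with the block.

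In capillary-like cells, 2 fatty acid synthesis genes passed edgeR's test for diet in both tissues, and neither passed with DESeq2 (adjusted p = 1 in both tissues). Fasn, fatty acid synthase, was lower on HFD by -4.07 ± 0.89 in mesentery (edgeR adjusted p = 0.0056) and by -3.43 ± 0.75 in adipose tissue (0.0017). Scd1, stearoyl-CoA desaturase, was lower by -3.23 ± 0.76 (0.014) and -3.98 ± 0.73 (3.86e-05). These were 2 of the 8 fatty acid genes tested, while 0 of the 11 other cholesterol enzymes tested were called there. The mesentery values of run A rest on 15 (chow) and 13 (HFD) cells. The 7 adipocyte markers moved the same way in capillary-like cells: their summed level was 1104 and 2613 in mesentery on chow, 0 and 207 on HFD, 908 and 3365 in adipose tissue on chow and 101 and 76.1 on HFD. Their part in the Fasn and Scd1 differences was not tested.

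Over the 32 class-by-library sums, the members' levels went together to different degrees. These include the capillary-like sums of run A mesentery, with 15 (chow) and 13 (HFD) cells. As a description, with sums that share libraries and depth, Pearson's r was 0.826 for Idi1 and Fdps, 0.692 for Srebf2 and Fdft1, and -0.208 for Insig1 and Fdft1, the lowest pair. Among the genes most like the mean of the members, of 6461 compared, were Cyp1b1 (r = 0.821), Armcx4 (0.748), Uxs1 (0.742), Marco (0.737) and Tcf20 (0.734). Marco and Cyp1b1 were among the leading genes of cluster 25. Cyp1b1, a cytochrome P450, was at 926 in cluster 25 and 729 in cluster 23, against at most 75.2 in any other endothelial cluster.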

How the data were processed

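Raw UMI counts of genes in barcodes were deposited by the authors, with no normalisation. Per the file headers, run A carries software version 3.0.2 and run B 5.0.0. The build mm10 and Seurat 4.3.0 are named in the submitters' processing notes, with no role given. The 30406 gene identifiers in both runs were used, with 99.58 to 99.93% of a library's UMIs. Of 27944 barcodes, 23970 were kept (500 or more UMIs, 300 or more genes, mitochondrial share of 10% or less). Scrublet's own cut-off found 48 doublets (0.2%), too few, so a rate in proportion to the cells of a library was used and 763 cells (3.18%) were removed. Libraries shared 0 to 10 barcodes with another, at most 0.31%.

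Cells were clustered (scanpy 1.11.5, leidenalg 0.10.2, scikit-learn 1.9.0, scipy 1.17.1, numpy 2.4.6 and Python 3.11.15) on 2000 variable genes without the members and the cholesterol lists, with 30 principal components, a re-implementation of Harmony over the runs, 20 neighbours and resolution 1.0. A cluster took the class with at least 3 markers raised 1.5-fold and a mean log2 fold of at least 0.5, and counted as endothelial at a mean marker level of at least 0.75. The names are rebuilt, hence "-like", and need not match the study's own. Among the 37 clusters, 4 with mixed markers (4660 barcodes) were left out.

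Raw counts were summed per library and class and tested with edgeR 4.0.16 (quasi-likelihood, limma 3.58.1, R 4.3.3), TMM and filterByExpr, 1 mean per group over all 8 libraries; called means a Benjamini-Hochberg adjusted p under 0.05 over all genes tested. The classes were compared with library as a block, leaving out sums under 20 cells. This limit was not applied in the fits by diet and tissue. The SE given with edgeR values is the size of the log2 difference divided by the square root of the test's F. It is approximate and need not match the p-value. Cluster 23 belongs to no class, so leaving out clusters 23 and 25 takes only cluster 25 from the lymphatic-like sums. The sums of the other classes then stay the same, and only the mean they are compared with changes. The tests were tried on simulated data first. Run letters pair the samples, since the labels describe a repeat of the experiment; deviations from group means correlated at 0.58 to 0.74 over 6 pairs of groups in all endothelial cells, 0.50 to 0.62 in arterial-like, 0.17 to 0.28 in capillary-like, 0.55 to 0.69 in venous-like and 0.60 to 0.69 in lymphatic-like cells. Alternatives were the block, DESeq2 1.42.0, no filter, doublets kept, a mitochondrial limit of 5%, resolution 2.0 and leaving out single libraries; leaving out clusters 23 and 25, keeping the mixed clusters and leaving out libraries with the block were chosen after seeing the data.

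The members, gene lists and marker lists were chosen with earlier results of these data known. All 8 members were named in every comparison, and of other lists at most the 4 called genes with the smallest p per list and direction. The genes most like the members were the 6 with the highest correlation over the 32 class-by-library sums, on log2(CPM + 5) centred within each run, among genes with a mean of at least 20 CPM; 1 of these 6 and 1 called gene of the lists are not reported here.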

Additional observations from a re-analysis of the deposited data

Results flagged for a closer look

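In 32 combinations of member and class, the diet difference was screened for opposite directions in the 2 tissues in both runs, on a log2(CPM + 5) scale. This was met in 5 cases, and the difference between the tissues was not shown by its own test in any of them. Hmgcs1 in arterial-like cells was 0.27 (run A) and 0.20 (run B) higher on HFD in mesentery and differed by -1.24 and -0.22 in adipose tissue, a difference between the tissues of 0.96 (edgeR interaction adjusted p = 1).

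The other 4 were in lymphatic-like cells, with values below 0 in the mesentery and above 0 in adipose tissue. For Hmgcs1 they were -0.77 and -1.08 against 0.07 and 0.69, a difference between the tissues of -1.30. For Idi1 they were -1.44 and -1.33 against 0.07 and 0.05, a difference of -1.44. For Fdft1 they were -0.36 and -0.28 against 0.90 and 0.18, a difference of -0.86. For Sqle they were -0.68 and -1.94 against 0.84 and 0.94, a difference of -2.20. The edgeR interaction adjusted p of these genes was at least 0.909, and 0.129 to 0.568 with the run as a block. Cluster 25 held 72.7% and 89.0% of the member UMIs of lymphatic-like cells in mesentery on chow A and B, and 0 of its cells were in adipose tissue.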

How the results depend on the processing

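Of 516 member values recomputed under other settings, 435 kept their direction and side of the threshold, 40 were no longer called, 22 became called and 19 changed sign; signs changed mostly with clusters 23 and 25 or a single library left out. Members called in lymphatic-like cells were 0 for the diet in mesentery, 1 without the filter and 3 with the replicate block, and for the tissues on chow 1, 2 by DESeq2, 0 without clusters 23 and 25, 0 at a mitochondrial limit of 5%, 4 without the filter and 5 with the block; the interaction gave 1 without the filter.

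Genes called for the diet in mesentery of lymphatic-like cells were 17, 117 by DESeq2, 0 without the clusters, 10 with doublets kept, 0 at 5%, 364 without the filter and 581 with the block. For the tissues on chow they were 81, 177, 0, 0 at 5%, 448 and 614. For the diet in adipose tissue no filter gave 19. For the tissues on HFD DESeq2 gave 2, no filter 37 and the block 12, and for the interaction 15, 93 and 118. In all endothelial cells DESeq2 gave 9 (diet, mesentery), 2 (diet, adipose), 89 (tissues, chow) and 6 (tissues, high fat diet), and the block 9, 5 and 70 in the first 3. With the block and without the clusters, 1 member and 199 genes were called for the diet and 0 and 155 for the tissues. For the classes, members called without the clusters were 2 (arterial) and 3 (lymphatic), and without the library block 3 (lymphatic). In venous-like cells 1 was called, 0 by DESeq2, without the clusters, at 5% or without the block, and 2 with doublets kept or no filter. The block changed no other call of a member.

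Values that changed sign without clusters 23 and 25 were, for the diet, Hmgcs1 0.88, Fdps 1.54, Fdft1 0.60 and Insig1 0.35; for the tissues on chow, Hmgcs1 -0.32 and Fdps -0.049; for capillary-like cells Idi1 0.062; and for lymphatic-like cells Hmgcs1 -0.15, Idi1 -0.51 and Fdps -0.24. Insig1 in venous-like cells was -0.028 without the block. Leaving out single libraries gave 0 to 15 genes (diet) and 0 to 78 (tissues on chow) in lymphatic-like cells, with 0 to 1 members for the latter, and 0 to 1 genes for both tissue comparisons of all endothelial cells. With the block it gave 1 to 4 members and 248 to 844 genes for the diet, and 1 to 6 members and 221 to 941 genes for the tissues. Members called for the classes ran from 1 to 2 (capillary), 0 to 1 (venous) and 2 to 6 (lymphatic), and genes called from 2595 to 3211 (arterial), 2361 to 3349, 2244 to 2817 and 3815 to 4789. The diet estimate ran from -0.88 to 0.17 for Fdps, -0.29 to 0.50 for Srebf2 and -1.11 to 0.43 for Insig1, the capillary-like one from -0.063 to 0.24 for Hmgcs1 and -0.58 to 0.43 for Sqle, and the venous-like one from -0.088 to 0.14 for Insig1. A library left alone in its group is assumed to vary like the others. The cause of these changes was not tested; the low counts of Sqle and Lss and 2 pools per group limit the precision.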

Other observations

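Outside the endothelial cells, the summed level of the members was highest in cells with adipocyte markers. Cluster 12, adipocyte-like, had a summed member level of 504 CPM, which was 624 in 365 cells of mesentery on chow B and 383 in 310 cells of adipose tissue on chow B. Hmgcs1 ran from 156 to 211 there and Insig1 from 103 to 190. Not every member was high: Srebf2 was at 24.4 and 13.3 in mesentery and adipose tissue on chow B. Its median was 24.3 in the 18 endothelial clusters other than 23 and 25. The unnamed cluster 28, with the leading genes Plbd1, Apol7c and Clec9a, stood at 344, and the unnamed cluster 16 at 281. The macrophage-like clusters 14 and 32 stood at 285 and 172. The value of cluster 12 in mesentery on chow B lay above that of cluster 25 in the same library (583) and below that of cluster 23 (662).

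Immediate early genes, which respond to the handling of tissue, differed by run. Their summed level in cluster 25 was 13360 in mesentery on chow A and 679 in mesentery on chow B, and in other lymphatic-like cells it was 7298 to 10750 over run A libraries and 561 to 806 over those of run B. The member levels of cluster 25 were 660 and 583 in the same libraries of mesentery on chow.

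In lymphatic-like cells, where 43.5% of all genes were called against the mean of the other classes, 2 of the 11 sterol sensing and SREBP processing genes were called, both higher, and of the 7 LXR and oxysterol genes 3 were called higher and 2 lower. Abca1, a cholesterol exporter, was higher by 1.53, Soat1, which esterifies cholesterol, by 1.08 and Nr1h3, which encodes an LXR, by 1.10. Mylip was lower by -1.34. Of the other enzymes of cholesterol synthesis tested, 4 of 11 were called higher, Pmvk with 1.27 (edgeR adjusted p = 2.3e-09) and Msmo1 with 1.29 (4.8e-06) among them, and 1 lower, Lbr with -1.09 (1.23e-10), a share near that of all genes. Without cluster 25, Pmvk (1.27) and Msmo1 (0.74) were higher and Lbr (-1.12) was lower.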
